A study of Homo sapiens with 6 samples.

Results

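The translatome described here is that of untreated CHL-1 cells, an established human melanoma line, read from the deposited table for the parental condition. All rows whose identifier starts with NM_ were taken, which gave 19302 messenger transcripts of 10471 named genes, out of 20708 transcripts of 11227 genes listed in any of the 3 tables of the study. The study comprised 6 libraries of ribosome footprints in 3 groups of 2. These were the untreated parental line, the same line after CRISPR editing of SNORD50A/B (a pair of small nucleolar RNA genes), and cells exposed for 20 minutes to 10 mM L-azetidine-2-carboxylic acid (AZC, an amino acid analog) together with 20 µM MG132, a proteasome inhibitor. In each group 1 of the libraries is marked as depleted of ribosomal RNA. All groups were CHL-1 cells grown in DMEM with fetal bovine serum and lysed with cycloheximide, a drug that halts elongating ribosomes on the messenger. The labels do not say whether the edited line is a clone, nor whether the libraries came from separate cultures.

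Ribosome profiling sequences the short stretches of messenger that a ribosome shields from nuclease. The number of footprints on a messenger rises with its abundance and with the number of ribosomes it carries, so a footprint level alone does not separate these. Footprints lie mainly on the coding sequence, and those upstream of it mark ribosomes on leader sequences, such as short upstream reading frames. In growing cells, much of the ribosome pool is known to be spent on messengers of the translation machinery, the cytoskeleton and metabolism.

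Each transcript is given as 100 bins of the 5′ UTR, 200 bins of the coding sequence and 100 bins of the 3′ UTR. Depth below is the read depth added up over the bases of a bin, and a gene is represented by its transcript with most depth. A share of depth is taken over the 262418240 units of depth of all 10471 genes. Both libraries of the group enter 1 table with no column of their own, so no spread between replicates exists, no test was made and every value below is a description of this table. In bulk cells, a lower level in each cell and fewer cells that hold the messenger cannot be told apart. Shares depend on gene length. Levels are therefore compared between genes as depth per coding base, in multiples of the median gene. This was done for the genes whose coding length could be read from the width of the bins, fitted over all 3 tables together. That was the case for 5898 genes (56.3%) and for 41 of the 100 genes with most depth. It was rarely so for genes that are both long and deep, such as EEF1A1 or ACTB. The median gene is the median over the 4444 genes with a read length and a depth above the lower quartile of row depth. Depth per base also fell with length among these 4444. The median was 4.7 times the median gene up to 100 codons, 2.66 from 100 to 200 codons and 0.455 above 500. Since long, deep genes were rarely read, they are largely missing from the long classes. How far the fall depends on this was not tested.

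Depth was concentrated in few messengers. The 10 genes with most depth held 6.38% of it, the 100 with most depth 24.6%, and 500 genes held 50%. The genes below the median depth together held 7.17%. EEF1A1 (NM_001402), the elongation factor that delivers aminoacyl-tRNA to the ribosome, held the largest share of any gene at 1.24%. It was followed by the cytoskeletal actin ACTB at 0.679%, the cytosolic HSP90 chaperone HSP90AB1 at 0.652%, the lactate dehydrogenase subunit LDHB at 0.608% and the tubulin TUBA1B at 0.562%. HSP90AA1 held 0.543%. The histone genes H3C14, H3C15, H4C14 and H4C15 took the next places with 0.522% to 0.523% each. Part of this is coding depth that the 5′ UTR bins of their short leaders hold again (described below). Of 695321 units in 5′ UTR bins of H4C14, 19724 lay inside the leader, and in H3C14 64017 of 536940. In coding bins H4C14 held 631366 units, fewer than the 679806 of RPL3 at rank 26. The constitutive HSP70 HSPA8 (0.460%), GAPDH (0.457%), the tubulins TUBA1C, TUBA1A and TUBB (0.431% to 0.459%), the histones H2AC19 and H2AC18 (0.334%), the prolyl isomerase PPIA (0.322%) and the glycolytic enzyme ENO1 (0.319%) were also among the 20 genes with most depth. Messengers of these families share sequence and hence reads. In 31 groups of genes the coding profiles differed by under 5%, and 6 of the 20 genes with most depth (H3C14 and H3C15, H4C14 and H4C15, H2AC18 and H2AC19) stood in such groups, so each of these pairs is better read as 1 value.

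**Figure D1:**
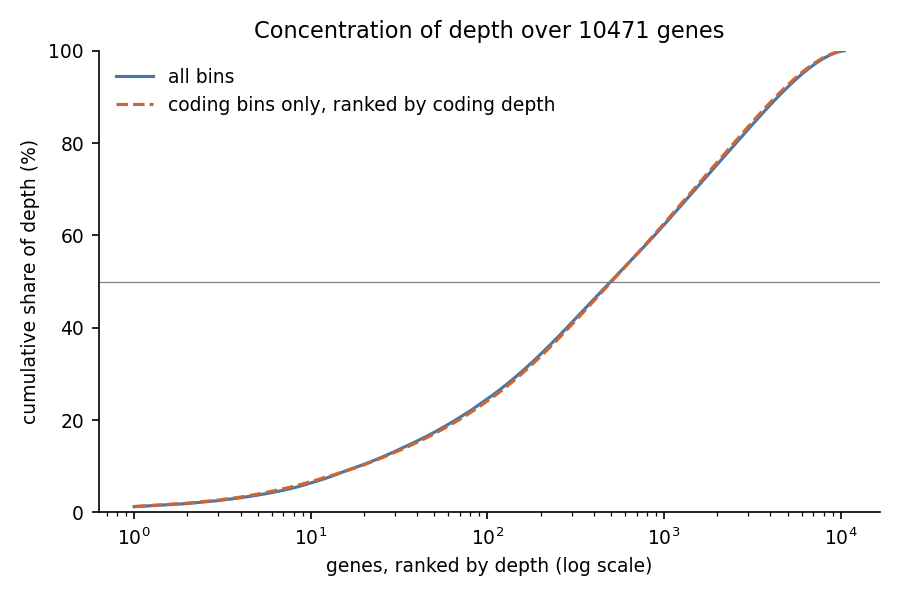
Cumulative share of footprint depth (vertical axis, percent) over genes ranked by depth (horizontal axis, log scale) in the untreated table; the solid line uses all bins and the dashed line coding bins only. Both lines cross 50% near 500 genes.

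By function, 31 gene lists with 757 genes in the table (7.23% of genes) held 40.1% of the depth. They contained 81 of the 100 genes with most depth, among them 22 cytosolic ribosomal proteins (12 large and 10 small subunit), 18 histones and 10 genes of actins, tubulins and their partners. Against a background of 10% of all genes, 414 of the 757 listed genes stood in the top 10% by depth, that is among the 1047 genes with most depth. These lists were drawn up for functions that growing cells need, and high levels in them follow in part from that choice.

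**Figure D2:**
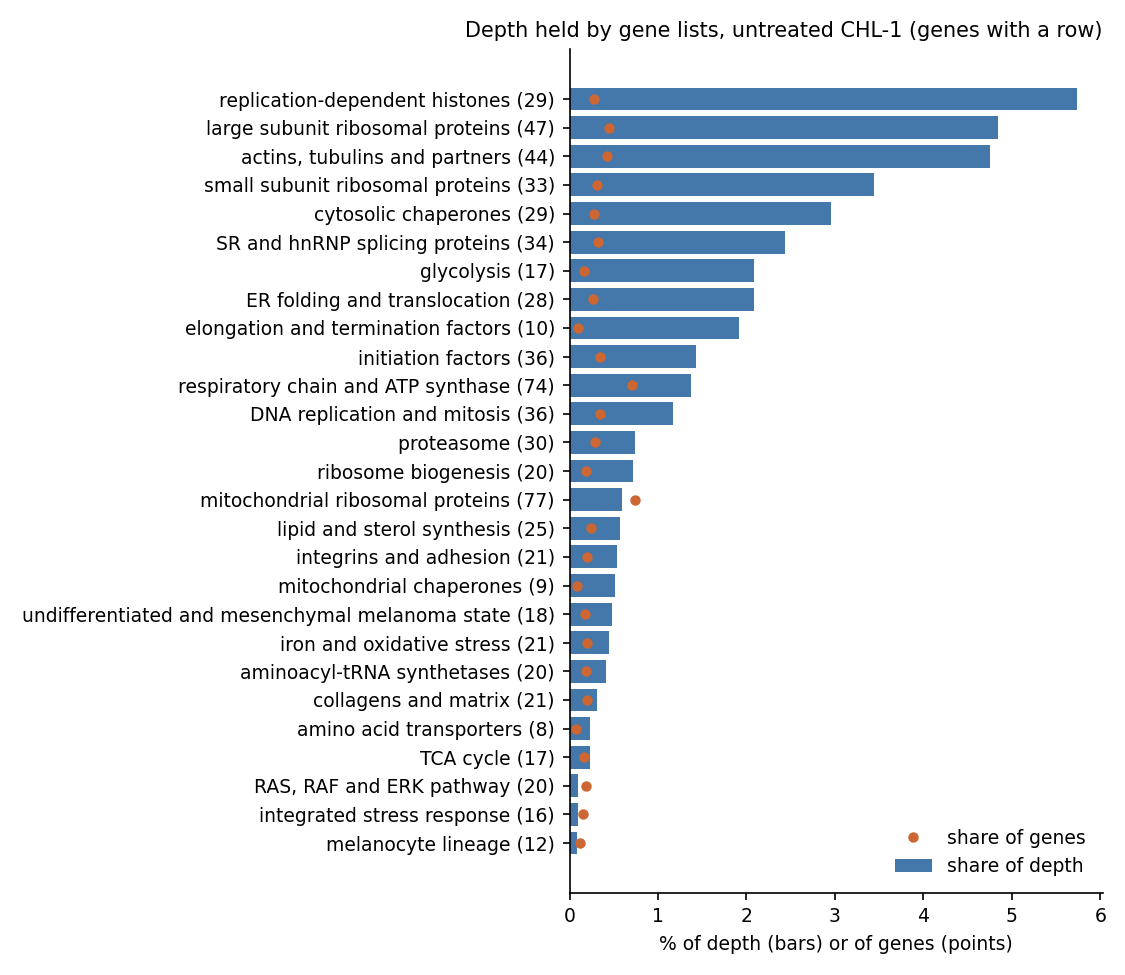
Share of footprint depth held by each gene list (bars, percent) beside its share of the number of genes (points, percent), with the number of members in the table in parentheses. Histones, ribosomal proteins and the cytoskeleton lie far above their share of genes, and mitochondrial ribosomal proteins lie below it, though not with the most abundant 1% of genes left out (0.786%).

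The translation machinery held more depth than any other function among these lists. Cytosolic ribosomal proteins, initiation factors, elongation and termination factors and aminoacyl-tRNA synthetases together held 12% of the depth in 1.39% of the genes. The 80 cytosolic ribosomal proteins, the protein part of the ribosome itself, held 8.28%, and all 80 stood in the top 10% of genes. RPL3 held 0.278%, RPL7 0.250% and RPL8 0.232% in the large subunit. In the small subunit RPS18 held 0.202% and RPS6 0.182%. Per base, the 40 large subunit members with a read length had a median of 44.3 times the median gene, with a range from 16.6 (RPL28) to 101 (RPL41, the shortest ribosomal protein, at 25 codons). The 26 small subunit members had a median of 53.4 and ran from 24.3 (RPS21) to 91.4 (RPS18). All 66 members with a read length therefore lay above the median gene, within a range of about 1 order of magnitude.

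Many messengers of this machinery begin with a 5′ terminal oligopyrimidine tract (5′ TOP), a C at the first transcribed base followed by pyrimidines, through which the growth-regulating kinase mTORC1 is known to control their translation. The 30 bases around the annotated start are shown for genes that carry much depth, from 5 bases upstream of the first transcribed base onwards, to show starts with and without the tract. They are from RefSeq on GRCh38.p14, and capitals mark the tract, defined as a C at the first transcribed base followed by at least 4 C or T, read on the transcribed strand only.
EEF1A1 (chr6:73521008-73521037, minus strand): acgttCTTTTTCgcaacgggtttgccgcca
EEF2 (chr19:3985439-3985468, minus strand): gcgttCTCTTCCgccgtcgtcgccgccatc
RPS6 (chr9:19380212-19380241, minus strand): tggccCTCTTTTCCgtggcgcctcggaggc
RPS18 (chr6:33272070-33272099, plus strand): ccgctCTCTCTTCCacaggaggcctacacg
NPM1 (chr5:171387844-171387873, plus strand): gcgtcCTTTCCCTggtgtgattccgtcctg
TPT1 (chr13:45341159-45341188, minus strand): tcggcCTTTTCCgcccgctcccccctcccc
RPL3 (chr22:39319599-39319628, minus strand): ccggcctctaccggcgggatttgatggcgt
GAPDH (chr12:6535259-6535288, plus strand): tccctgtccggatgctgcgcctgcggtaga
LDHB (chr12:21657818-21657847, minus strand): ccctccttgcagagccggcgccggaggaga
HSPA8 (chr11:123062112-123062141, minus strand): ccggtctcattgaactcgcctgcagctctt

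EEF1A1, EEF2, the ribosomal proteins RPS6 and RPS18, the nucleolar protein NPM1 and the translationally controlled TPT1 carry a tract of 7 to 9 bases. GAPDH, LDHB and HSPA8 do not, and at the annotated start of RPL3 the run is broken by an A. A RefSeq start was matched for 8712 genes, and 488 of these (5.6%) had the tract, against 4.04% of all 27305 starts of the reference. It was present in 25 of 38 large subunit genes (65.8%), 19 of 26 small subunit genes (73.1%), 7 of 28 initiation factors and 2 of 8 elongation and termination factors. Among glycolytic genes it was in 0 of 17 and among histones in 0 of 28. By rank of depth the share of starts with the tract was 17.7% in genes 1 to 100, 13.7% in genes 101 to 1000, 4.90% in genes 1001 to 5000 and 4.58% in the rest. All 47 large and 33 small subunit ribosomal proteins stood in genes 1 to 1000, and 44 of their 64 matched starts had the tract. Part of the higher share in genes 1 to 1000 is therefore this list. The shares by rank were not computed without ribosomal proteins. A start without these letters says nothing of other annotated or used starts.

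Among the other translation genes EEF2, which moves the ribosome along the messenger, held 0.310% and EIF5A, which aids peptide bond formation, 0.0982%. The 36 initiation factors held 1.43%, led by the RNA helicase EIF4A1 at 0.136%, EIF3E at 0.131% and EIF3L at 0.101%. Their depth per base, read for 15 members, spread widely, from 0.767 times the median gene in the guanine exchange factor subunit EIF2B2 to 50.5 in the start codon factor EIF1. The 20 aminoacyl-tRNA synthetases, which load tRNAs, held 0.411%, with EPRS1 the highest at 0.0446%. Ribosome biogenesis genes (20) held 0.716%, of which NCL, nucleolin, had 0.224% and NPM1 0.192%. NPM1 stood at 59.8 times the median gene per base, against a list median of 4.65.

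Replication-dependent histones, the packaging proteins made in S phase from messengers that end in a stem-loop instead of a poly(A) tail, held 5.74% of the depth in 29 genes. Of 60 genes in the list, 31 had no row here. Their median depth per base was 61.0 times the median gene. H3C14 and H4C14 reached 227, H2AC18 172, H2BC12 156 and H2BC21 125, while H4C13 stood at 3.72, H3C11 at 2.78 and the linker histone H1-3 at 1.65. The share depends on the bins, rows and genes used. Depth per base was not recomputed with near-identical genes counted once. Histone leaders are short, and the 5′ UTR bins of a short leader also hold coding depth (described below). Over coding bins only the histones held 4.05%, summed over all rows of each gene 3.56%, and with near-identical genes counted once 4.45%. With the most abundant 1% of genes left out the share was 0.761%, since 18 histones are among the 100 genes with most depth.

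**Figure D3:**
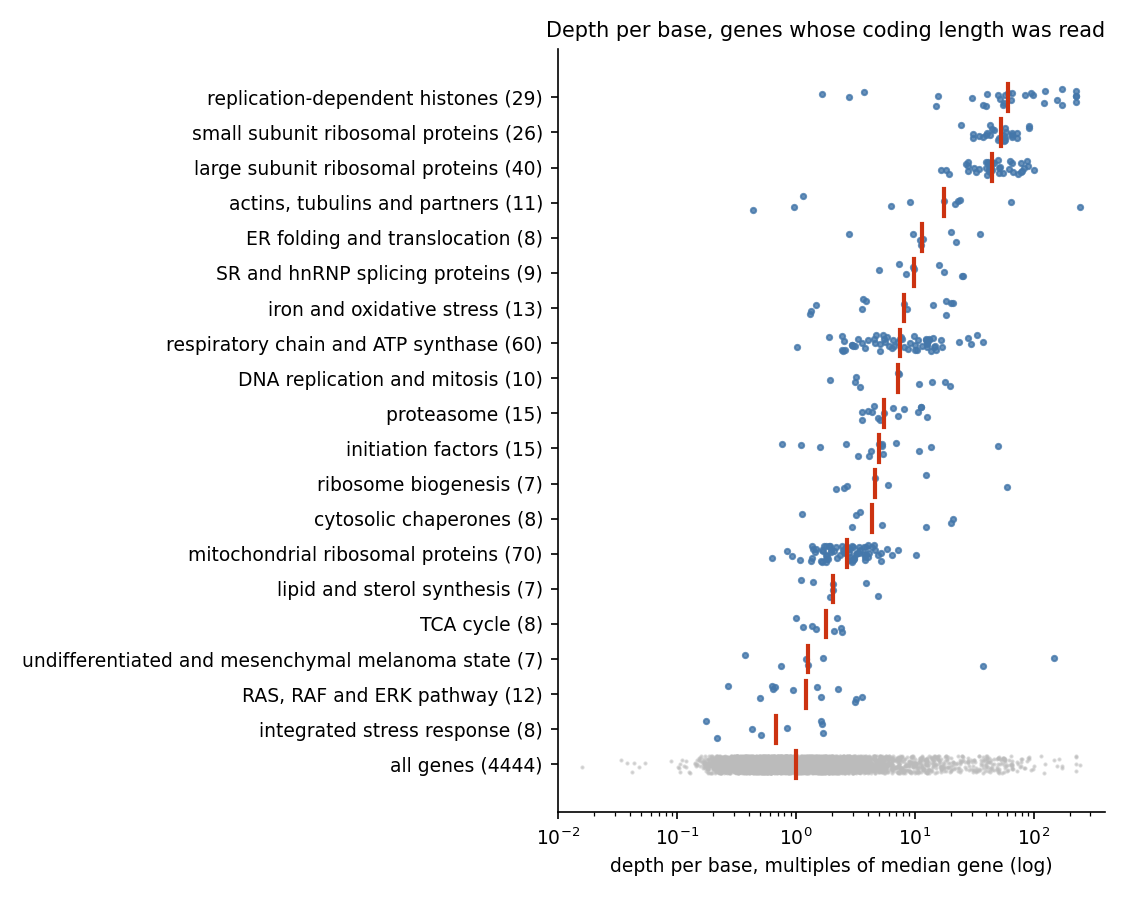
Coding depth per base in multiples of the median gene (horizontal axis, log scale) for genes whose coding length was read, by list with the number of such genes; points are genes and red bars medians. Ribosomal proteins lie in a narrow band between 16.6 and 101, while histones run from 1.65 to 227.

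The cytoskeleton held 4.75% of the depth in 44 genes. Actin and the tubulins led by share, and per base the highest gene of all with a read length was TMSB10, a thymosin that sequesters actin monomers, at 244 times the median gene over 44 codons. The actin-severing CFL1 stood at 64.9. PFN1, profilin, was at 0.432 on the coding sequence, with most of its depth in the 3′ UTR bins (below). Cytosolic chaperones held 2.95% (29 genes), of which HSP90AB1, HSP90AA1 and HSPA8 made up most. Their co-chaperone PTGES3 stood at 21 times the median gene per base and the ribosome-associated BTF3 at 20.1. Folding and translocation genes of the endoplasmic reticulum held 2.08% in 28 genes, led by HSP90B1 (0.288%), HSPA5 (0.258%) and the calcium-binding chaperone CALR (0.179%). Among mitochondrial chaperones HSPD1 held 0.272%, and its partner HSPE1 stood at 55.8 times the median gene per base.

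In energy metabolism, glycolysis held 2.08% in 17 genes, against 0.229% for the 17 genes of the TCA cycle. With the most abundant 1% of genes left out these were 0.542% and 0.306%. After LDHB, GAPDH and ENO1 came PKM (0.166%), LDHA (0.124%) and ALDOA (0.115%). LDHB thus had more depth than LDHA, the other common subunit of lactate dehydrogenase. The hexokinases HK2 (0.0162%) and HK1 (0.00685%) and the phosphofructokinases PFKM, PFKL and PFKP (0.00772% to 0.0164%) were lower. Depth per base, read for 4 of the enzymes, was 17.7 times the median gene in TPI1, 17.1 in PGAM1, 2.0 in ENO2 and 0.443 in ALDOC. Respiratory chain and ATP synthase genes (74, nuclear encoded) held 1.37%, led by the ATP synthase subunits ATP5F1B (0.120%) and ATP5F1A (0.0801%). Their median depth per base was 7.55 over 60 members, with COXFA4 at 37.3 and COX6C at 33.2. The 77 mitochondrial ribosomal proteins held 0.589%, less than their 0.735% share of genes, but 0.786% with the most abundant 1% of genes left out. Per base their median was 2.71, close to the 2.66 of genes of 100 to 200 codons (their own median is 192), and the highest, MRPL13, reached 10.2, below the lowest cytosolic ribosomal protein with a read length. In lipid synthesis FASN, fatty acid synthase, held 0.189%, ACLY 0.0818% and the desaturase SCD 0.0513%.

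RNA-binding proteins of splicing, the SR and hnRNP families, held 2.43% in 34 genes, 30 of them in the top 10%. HNRNPA1 held 0.257%, HNRNPU 0.199% and HNRNPA2B1 0.190%. DNA replication and mitosis genes held 1.17%, with the topoisomerase TOP2A at 0.121%, the helicase subunit MCM7 at 0.104% and the ribonucleotide reductase subunit RRM2 at 0.0812%. The proteasome list held 0.745% in 30 genes. Its highest members were PSMB4 (0.0693%), PSMD2 (0.0484%) and PSMB2 (0.0363%), and 15 members with a read length lay between 3.57 and 12.6 times the median gene. Among iron and redox genes PRDX1 (0.0583%), the transferrin receptor TFRC (0.0580%) and PRDX6 (0.0509%) led, and FTH1, the ferritin heavy chain, stood at 8.02 times the median gene. The heterodimeric amino acid transporter SLC3A2 with SLC7A5 held 0.0786% and 0.0743%.

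Of the 100 genes with most depth, 19 were in no list. IGFBP5, LRRN1, COL11A1 and PLAT were picked from these after their values were seen, and COL18A1 was picked likewise from just below the 100. IGFBP5, a secreted binder of insulin-like growth factors, stood at rank 25 with 0.285%. LRRN1, a leucine-rich repeat membrane protein, had rank 35 (0.228%), COL11A1, a chain of type XI collagen, rank 43 (0.191%) and PLAT, tissue plasminogen activator, rank 57 (0.168%). COL18A1, a chain of type XVIII collagen, stood at rank 101 with 0.116%. Genes of the matrix list were lower, with the membrane protease MMP14 at 0.0471%, the laminin LAMB1 at 0.0319% and the proteoglycan VCAN at 0.0296%. The collagen and matrix list, which holds neither COL11A1 nor COL18A1, had 0.308% in 21 genes, and 15 of its 36 genes, COL1A1, COL1A2 and COL3A1 among them, had no row here.

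The label of a melanoma line was checked against lineage markers. SOX10, a neural crest transcription factor kept in most melanomas, was abundant, with rank 234 and 0.0714% of the depth. Most pigment cell genes with a row were near the bottom of the table. MITF, the master regulator of melanocytes, had rank 8180 and 0.189 times the median depth per base, PMEL rank 9958 and DCT rank 9030, and MLANA had no depth in coding bins. TYR, TYRP1 and GPR143 had no row. OCA2, a melanosome transporter, was higher at rank 6155, with 5515 of its 5887 units of depth in coding bins. In the longer melanocyte list 12 of 20 genes had a row and 4 were above the minimum used for ratios, the lower quartile of row depth, which 75.9% of all genes passed. Of the 10 markers used for the check 7 were in the table, and 3 (SOX10, S100B and PAX3) were above that minimum. Of 10 markers of an undifferentiated or mesenchymal melanoma state 8 were in the table and 6 above that minimum. The intermediate filament VIM had rank 61 (0.158%), and NGFR, CDH2 and FOSL1 ranks between 3165 and 3554. AXL stood at rank 6663 and SNAI2 at 10053, and EGFR and CAV1 had no row. In the longer list for that state 18 of 23 genes had a row and 12 were above the minimum. Depth per base was read for 7 of these, with a median of 1.26 times the median gene and a range from 0.375 to 149 in LGALS1, galectin-1. Of 5 keratinocyte markers KRT10 alone had a row, with 5.77% of its depth in coding bins, and the 4 leukocyte, 3 endothelial and 3 blood or liver markers had none. Longer lists for these cell types held 7 genes with a row of 39. TF, transferrin, a serum protein of the liver, stood at rank 855 (0.0212%) with depth in 100% of its coding bins, and the keratin KRT18 at rank 4454. HBA1, HBA2, KDR and LYZ lay below the minimum, LYZ with no depth in coding bins.

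Signalling genes of the RAS, RAF and ERK pathway, which drives most melanomas, held 0.0984% in 20 genes, and 0 of them stood in the top 10%. The adaptor GRB2 (3.56 times the median gene per base) and NRAS (3.21) stood at similar depth per base, with HRAS at 0.629. MAP2K2 held 0.00945% and BRAF, at rank 7125, 0.00164%. The ERK target ETV5 stood at 1.62 and the ERK phosphatase DUSP6 at 1.49 times the median gene. The integrated stress response list, genes through which cells answer unfolded proteins and amino acid shortage, held 0.0980% in 16 genes, also below its share of genes (0.153%). Its highest members were the transcription factor ATF4 at 0.0244%, most of it outside the coding bins, and the kinases EIF2AK1 (0.0189%) and EIF2AK2 (0.0117%). EIF2AK1 had 19685 of its 49634 units in 3′ UTR bins. EIF2AK2 had 8031 of its 30599 units in 5′ UTR bins, of which 234 lay inside its short leader. The effectors DDIT3, PPP1R15A, TRIB3 and ATF3 lay between ranks 7840 and 9405.

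Along the coding sequence depth was close to even, with a narrow peak at each end. In 1143 genes of 200 to 400 codons above the median depth, the first 15 bases averaged 1.36 times the gene's own mean depth per base, bases 16 to 60 0.86, bases 61 to 150 0.91 and bases 151 to 300 0.99. Towards the end, depth was 1.0 at 150 to 61 bases before it, 1.16 at 60 to 16 and 1.61 in the last 15 bases. Upstream, 546 of these genes had a leader read as long. In them the last 15 bases before the start stood at 1.09 and the bases from 50 to 16 before it at 0.46. A leader length can be read only where its bins hold depth, so these 546 do not stand for all leaders. The step lay about 15 bases upstream of the start codon and the drop about as far behind it. A footprint covers bases on both sides of the ribosome's site, so ribosomes waiting on a start codon also give depth just upstream of it.

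**Figure D4:**
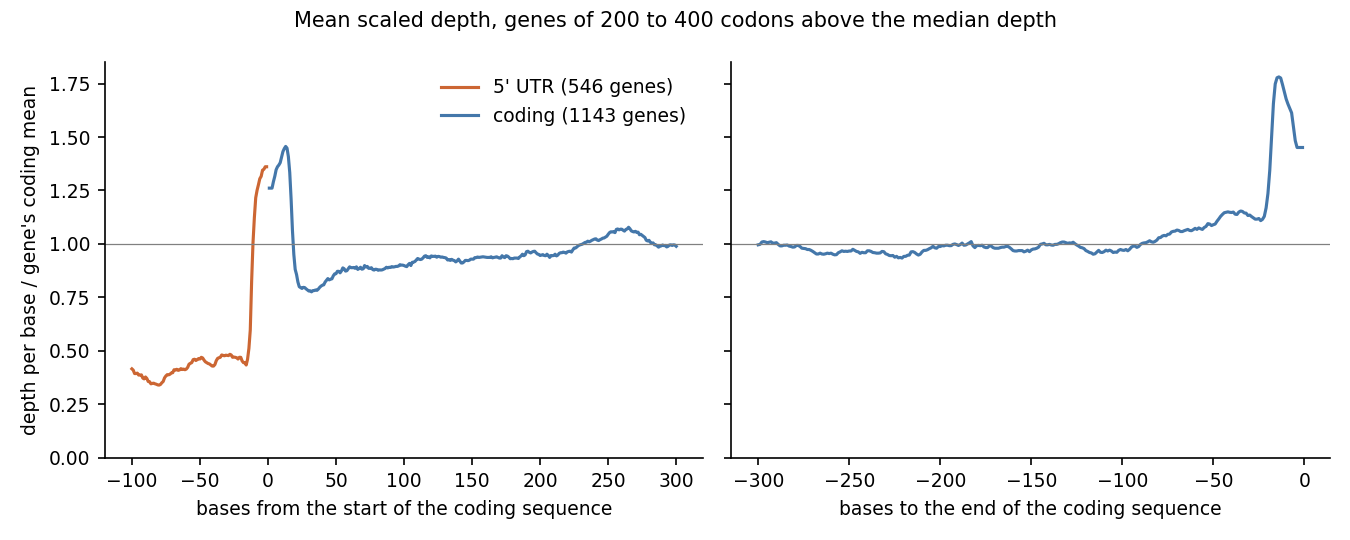
Mean over genes of depth per base divided by the gene's coding mean, by bases from the start (left) and to the end (right) of the coding sequence, for genes of 200 to 400 codons above the median depth. Depth steps up about 15 bases before the start, averages 1.36 in the first 15 coding bases and 1.61 in the last 15, and stays near 1 between.

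Over all 5227 genes above the median depth, in relative bins, the last 10 of the 200 coding bins averaged 1.27 times the gene's mean and the first 10 averaged 1.04. The median over genes was 1.06 at the end and 0.748 at the start, against 0.834 in the middle of the coding bins. The first 10 bins thus lay above the gene's mean by the mean over genes and below it by the median. By the median the middle lay below the gene's mean as well. The end value was 1.49 in genes of up to 200 codons, 1.36 from 201 to 400 and 1.25 above 400. By list, the end stood highest in integrins and adhesion (1.53 over 15 genes) and in the respiratory chain and ATP synthase (1.47 over 74 genes). The rise was absent in actins, tubulins and partners (1.0 over 41). The respiratory list had a median of 138 codons over 60 members, and its 1.47 is no higher than the 1.49 of genes of up to 200 codons. For integrins and adhesion a length was read for 5 members above the minimum, and no value for genes of like length was computed. At the start, histones had 1.39 and initiation factors 1.22, against 0.815 in large subunit ribosomal proteins and 0.706 in collagens and matrix. The integrated stress response list reached 2.88 over 8 genes, which rested on ATF4 and ATF5. Without them it was 0.812 over 6.

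The 5′ share compares the first 20 coding bins of a gene with all 200, as a ratio of mean depths. In 26 genes with a read length of at most 183 bases the coding bins run past the stop codon and do not measure the reading frame alone. Such genes, TMSB10 and RPL41 among them, are left out of those named here and among the peaks described below. It had a median of 0.928 with quartiles of 0.607 and 1.30 over 7946 genes. Of these 6.25% were above 2 and 18.2% below 0.5. In the top 10% by coding depth the highest was OAZ1 at 6.49, the ornithine decarboxylase antizyme, whose synthesis needs a programmed frameshift. Whether the depth is related to the frameshift was not tested. Below OAZ1 stood the translation regulator EIF4G2 at 2.96, the related BZW1 at 2.55 and BZW2 at 2.48, and PRRC2A at 2.42. BZW1, BZW2 and EIF4G2 all act on initiation. The readthrough genes HSPE1-MOB4 (3.68) and RPS10-NUDT3 (2.39) begin with the sequence of an abundant gene and can take its reads. The lowest were at 0, and of these PPIAL4A, PPIAL4C and PPIAL4E resemble PPIA and POTEE resembles actin. Among abundant genes HSP90AB1 stood at 0.340 and HSPA8 at 0.540, while TUBA1A (1.82), TUBA1C (1.62) and LDHB (1.35) lay above 1. ALDOA stood at 0.004 and EIF5A at 0.001. Whether the transcript chosen for a gene has the start that the cells use was not tested. XBP1 and SEC61B had 3′ shares, taken likewise over the last 20 bins, of 2.35 and 1.92, against a median of 1.08 over genes. Their messengers are translated at the endoplasmic reticulum, but the 28 genes of the endoplasmic reticulum list had a median of 1.14. SEC61B has 96 codons, and genes of up to 200 codons above the median depth averaged 1.31 in the last 20 bins.

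The 5′ UTR bins need care. They held 10.4% of the depth of the 10471 genes, the coding bins 86.6% and the 3′ UTR bins 2.97%. Where a leader has fewer bases than the 100 bins, the bins were found to run past the start codon. In 1593 of 6805 transcripts where both readings could be compared (23.4%), the 5′ UTR bins beyond the leader matched the depth of the coding bins, and only 13 transcripts lay between the matching and the differing group. In those 1593, 89.7% of the depth in 5′ UTR bins lay past the start. In 3671 genes with both lengths read, the share of depth in 5′ UTR bins was 16.1%, and 6.18% when each region was kept to its own bases, with the coding share rising from 80.6% to 90.2%. Per gene, 5′ UTR depth as a percent of coding depth had a median of 10.6% by bins and 4.76% inside the leader over 3118 genes above the minimum. A leader length can be read only where its bins hold depth, so these genes are selected in part for leader depth. This holds wherever they are used here. Over all 7946 genes above the minimum the median by bins was 5.97%. The change came from the 967 with a short leader, at 19.3% by bins and 1.29% inside. The 2151 long leaders had 7.66% either way. Ribosomal proteins (20.3% by bins, 2.11% inside, over 52 genes) and histones (43.5% and 5.86%, over 18 genes) lost most of their apparent leader depth in this way, and so did OAZ1 (51.1% and 5.42%) and SEC61B (16.7% and 2.82%).

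**Figure D5:**
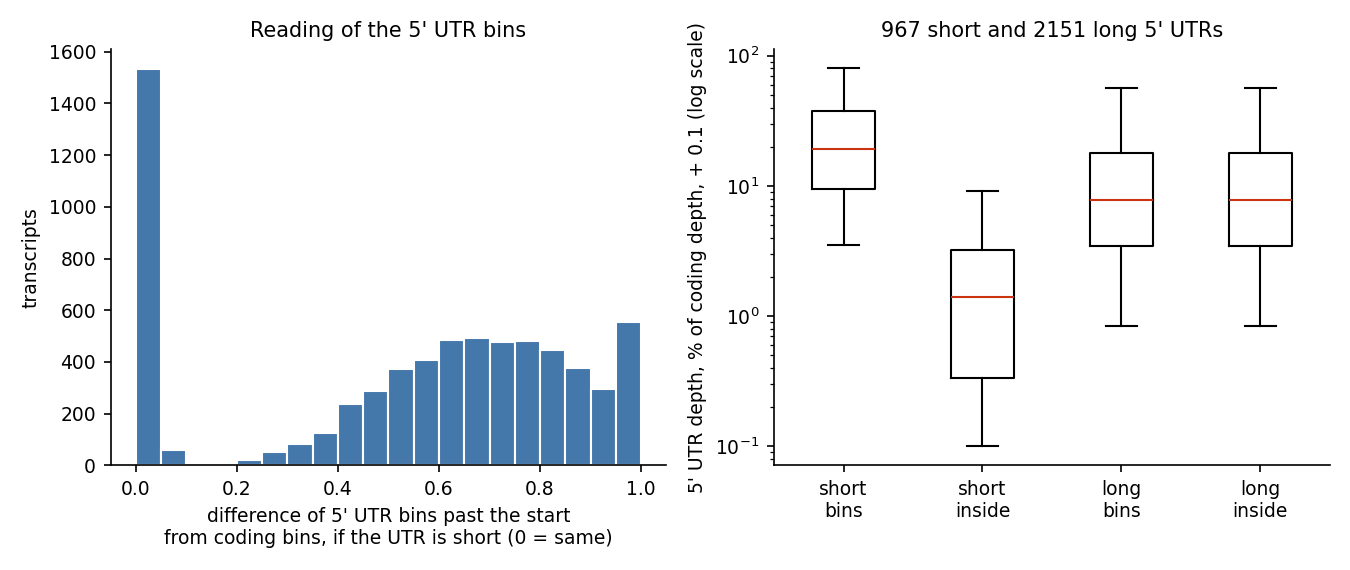
Left, number of transcripts by the relative difference between 5′ UTR bins beyond the leader and coding bins, where 0 is the same depth; right, 5′ UTR depth as percent of coding depth (log scale, 0.1 added) for short and long leaders by bins and inside the leader, with boxes for quartiles and whiskers for the 5th and 95th percentiles. A separate group of 1593 transcripts lies below 0.1, and short leaders fall from a median of 19.3% to 1.29%.

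Leaders with more depth than their coding sequence were rare. By bins there were 191 among 7946 genes (2.4%). Inside the read lengths there were 45 among 3118 genes (1.44%), against 68 of the same 3118 by bins. Among genes above the median depth the highest was TSC22D4, with 7519 units of depth in a leader of 755 bases and 2044 in the coding sequence, or 368%. C1orf122 stood at 320%, SNRPN at 269%, PNRC2 at 234%, ATF5 at 168%, ASNSD1 at 158%, and FAM72B and FAM72D, near-copies of each other, at 152% and 148%. SNRPN and ASNSD1 messengers are known to code for a second protein upstream, and ATF5 like ATF4 has regulatory upstream reading frames. In ATF5 the last 20 of the 100 leader bins held 40.4% of the leader depth, against 3.98% in SNRPN, where the highest bin was number 57. By bins alone, with the leader length not read, CDKN2C (1499%), MFSD11 (1071%), GPBP1L1 (898%), PTP4A2 (366%), GPBP1 (303%) and ATF4 (302%) were highest. Whether other genes overlap the leaders named here, and add reads to them, was not looked up.

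ATF4 (NM_001675) had 47901 units of depth in 5′ UTR bins and 15888 in coding bins, and the first 20 of its 100 leader bins held 84.6% of the former, with the highest at bin 3. Its 5′ share on the coding sequence was 4.91. That of ATF5 was 9.0, with depth in 18.5% of its coding bins. Its leader depth lay towards the start codon, with 0.108% in the first 20 leader bins. Depth in bins is not split by reading frame. Which frame the depth at the coding start of ATF4 and ATF5 belongs to was therefore not tested. AMD1, a polyamine enzyme with a short upstream reading frame near the cap, had 73.9% of its coding depth in 5′ UTR bins, and 90.9% of this in the first 20. In MDM2, which also has upstream reading frames, leader depth was 13.2% of coding depth inside a leader of 287 bases. By bins, SOX10 had 18.9% and EEF1A1 11%.

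Depth in 3′ UTR bins was low, with a median of 1.5% of coding depth and quartiles of 0.469% and 3.96% over the 7946 genes above the minimum. More 3′ UTR than coding depth was seen in 64 of them (0.805%), of which 10 had no coding depth. The highest of these were TMC5, at rank 98 with 315489 units in 3′ UTR bins, and CLEC2D, at rank 185 with 220716. TMC5 overlaps a pseudogene of the small RNA U4 and CLEC2D a pseudogene of NPM1, and the 10 highest neighbouring bins held 99.9% and 54.5% of this depth. Among genes with coding depth and above the median depth, SNX22, a sorting nexin, had 103508 units in 3′ UTR bins and 83 in coding bins, EDARADD 158374 and 162, and ENOSF1 69384 and 573. In the reference annotation SNX22 overlaps PPIB, a cyclophilin at rank 199, ENOSF1 overlaps TYMS, thymidylate synthase at rank 266, EDARADD overlaps ENO1P1, a pseudogene of ENO1, and CTC1 (72270 and 1485) overlaps PFAS and 3 tRNA genes. PFAS itself had 32975 units in all, fewer than the 3′ UTR bins of CTC1. Reads of overlapping genes cannot be told apart here, since the counting is not stated to use strand. In TRMT5 (53329 and 6362), which overlaps a pseudogene of the small RNA U6 and SLC38A6, the 10 highest neighbouring bins held 99.4% of the 3′ UTR depth, against 80.2% in CTC1. PFN1 differed. It overlaps no other gene of the reference table, and its 44062 units covered 93 of the 100 3′ UTR bins, against 1630 units in coding bins. HSPA8 had 13.9% of its coding depth there.

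Within the coding sequence, the 10 highest neighbouring bins of 200 held a median of 9.6% of a gene's coding depth, with quartiles of 8.4% and 11.3%, in the 1047 genes with most coding depth. An even profile would give 5%. The place of this peak was looked up in the other 2 tables of the study, which are separate libraries of the same line. It recurred within 10 bins in both for 255 of 1047 genes (24.4%), and for 15.6% when all genes above the median coding depth were taken. Peaks in the first 20 bins recurred in 100 of 174 genes, those from bin 21 to 100 in 81 of 350, those from bin 101 to 180 in 50 of 375, and those from bin 181 onwards in 24 of 148. The most concentrated recurring peak was in BRCA1, a DNA repair gene, where 10 bins from bin 148 held 74.2% of coding depth (70.4% in the edited and 67.4% in the treated cells). OAZ1 had 44.6% of its coding depth in 10 bins from bin 10, whose first base is the 31st of the reading frame, with 49.6% and 41.6% at the same bin in the other tables. UBE2S, a ubiquitin-conjugating enzyme, had 30.9% from bin 21, and SP100, a nuclear body protein, 48.8% from bin 172. POTEE, POTEF and ACTA1 (45.3% to 72.9%) share sequence with actin and H2AC25 (39.1%) with other histones, and reads of such copies cannot be told apart.

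The gene levels of the untreated table were close to those of the other 2. Across 10082 genes Spearman's rho of the log2 level was 0.953 with the CRISPR table, and across 9764 genes 0.951 with the AZC + MG132 table (Pearson's r of 0.958 and 0.959). Of the 100 genes with most depth, 88 were also among the 100 of the CRISPR table and 81 among those of the AZC + MG132 table. These correlations are across genes, which share length, base composition and mappability between tables and are not independent replicates.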

How the data were processed

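The authors deposited 1 table per condition, with values on a log2 scale, each log2(x + 1) rounded to 2 decimals, where x is read here as summed read depth. Per the submitters' processing notes, reads were handled with Bowtie2 and TopHat2 on hg19, with no version given. The sources used here do not state how the libraries of a group were combined. Library totals in reads are unknown, so no counting interval was computed. No per-sample column was left unused.

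Values were turned into depth, and the deposited value of the row above, which the coding bins also contained (4.37% of coding depth), was subtracted. After this 100% of the coding bins with a deposited value below 4 were whole within the rounding of the deposited values, a tolerance of at most 0.061. Names came from RefSeq (GRCh38.p14), used for names and starts only. The 219 transcripts without a name held 3.93% of the depth and were left out.

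Coding lengths were planned from RefSeq proteins, which were not used here. They were read from the bin widths instead, which the repetition of values in neighbouring bins gives to 0.01 base. A width was accepted at a margin of 10 between the best and the next fit. On 300 simulated transcripts 137 passed, and 100% of these were right. Of 11228 coding widths read for transcripts of the untreated table, 0.232% matched no coding length, against 33.3% of all possible widths. Deep, long genes often failed, so values per base describe the genes that could be read.

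The members and lists were chosen with earlier results of these data known. Genes named are the 20 with most depth, the highest and lowest per base, the 3 highest of each list, those with most UTR depth, the highest and lowest 5′ shares, the 10 most concentrated recurring peaks and a fixed set. Some genes that these rules name are not reported here. SNHG5, of that set, had no row. Others were named after their values were seen, as extremes of a list or as neighbours of a named gene. No test was made. Alternatives changed the bins, the rows and the genes used. Computations used Python 3.11.15 with numpy 2.4.6, pandas 2.3.3, scipy 1.17.1 and numba 0.67.0.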

Additional observations from a re-analysis of the deposited data

How the results depend on the processing

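No paired analysis was possible because both libraries of a group share 1 table and no value carries a replicate number, and for the same reason no library could be left out. With no spread to judge by, a value is taken as moved when its first 3 digits changed, and the causes were not tested unless the alternative itself shows them. With the deposited values, without subtraction, coding, 5′ UTR and 3′ UTR bins held 86.2%, 9.63% and 4.21% of depth (85.6%, 10.0% and 4.38% after it). With 1 row per gene they held 86.6%, 10.4% and 2.97%, and without the most abundant 1% of rows 88.4%, 8.28% and 3.27%. In genes with both lengths read, chosen after seeing the data, they held 80.6%, 16.1% and 3.24% by bins, and 90.2%, 6.18% and 3.63% inside each region. The 100 genes with most depth held 27.0% with rows summed, 24.1% over coding bins and 23.7% as deposited, and 50% of depth was held by 429, 505 and 553 genes. Translation lists held 11.1% with rows summed, 11.5% over coding bins, 11.6% as deposited and 8.44% without the most abundant 1% of genes. Ribosomal proteins held 7.61%, 7.59%, 8.00% and 5.86% and histones 3.56%, 4.05%, 5.54% and 0.761% in the same order. With near-identical genes counted once, also chosen after seeing the data, these 3 held 12.3%, 8.45% and 4.45%. Of 24 single lists with at least 0.1% of depth, 15 stayed within 1.5 times their share without the most abundant 1% of genes (the others were histones, elongation and termination factors at 0.48%, the undifferentiated melanoma state at 0.113%, glycolysis at 0.542%, the cytoskeleton at 1.7%, cytosolic chaperones at 1.36%, mitochondrial chaperones at 0.328%, the endoplasmic reticulum list at 1.23% and ribosome biogenesis at 0.401%), 23 with rows summed (histones were the exception), and all 24 under the other 3 settings. Median depth per base of ribosomal proteins was 49.1 without the first and last 20 bins, 56.1 by the median bin, 41.2 as deposited and 44.3 with a margin of 20, a setting added later, and that of histones 59.5, 69.2, 54.3 and 54.3. The last 10 coding bins stood at 1.21 in the top 10% of genes and 1.06 by the median over genes, the first 10 at 1.03 and 0.748. The 5′ share was 0.905 for 10 bins, 0.931 as deposited and 0.926 above the median depth. The median 5′ UTR depth was 5.97% of coding depth over all 7946 genes, 5.28% above the median depth, 5.40% as deposited, and over genes with both lengths read 10.6% by bins and 4.76% inside; the 3′ UTR gave 1.40% above the median depth and 1.38% as deposited. Peaks recurred in 28.3% of genes with 5 bins and in 15.6% above the median coding depth. The rank correlation over coding bins was 0.954 with the CRISPR and 0.952 with the AZC + MG132 table.

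The number of reads behind the depth is unknown, so what low values can show is not known. Values per base cover 44.1% of the depth and leave out most long, deep genes. Near-copies share reads in amounts that these values do not give. For 3′ UTR bins and for 5′ UTR bins with an unread length, whether they run past their region was not tested.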

Other observations

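Transcripts without a gene name held 3.93% of the depth of all rows, and 4 of these 219 held 78.4% of that. Their identities were not pursued.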
